A study of Drosophila melanogaster with 9 samples.

Results

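Meiotic arrest genes are the genes whose loss stops Drosophila spermatocytes, the growing male germ cells, before the meiotic divisions. The set followed here holds 10 of the 17874 genes in the count table, chosen by their symbols because they mark spermatocytes: aly, comr, topi, can, sa, mia, nht, bol, twe and Cyt-c-d. The name is used here for the whole set, although bol, twe and Cyt-c-d act as the cells enter meiosis or after it. All 10 genes were read in 9 libraries of RNA from larval bleeds, collected as hemocytes (the fly's blood cells), to ask how much testis RNA such bleeds held and whether it differed between the groups. The groups had 3 biological replicates each: the W1118 control strain, larvae of genotype UAS-BCR-ABLP210 (p210, the human fusion kinase of chronic myeloid leukaemia), and larvae of genotype UAS-BCR-ABLT315I (T315I, the form with a kinase-domain change that blocks imatinib). Each library came from 300 third-instar larvae, with experiments at 25 °C, and was made from total RNA depleted of ribosomal RNA. The labels give neither the driver of the UAS transgenes, so the cells that expressed them are not known, nor the sex or exact age of the larvae. The control is a strain without the UAS construct, so transgene and strain background cannot be told apart in a difference from it.

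In the testis, spermatocytes switch on a large programme of genes long before they are used in sperm. A testis form of the MMB/dREAM complex, tMAC, and testis versions of the TAF subunits of TFIID, the tTAFs, are needed to turn that programme on. Spermatocytes that lack either kind of protein stay arrested, and many of the sperm genes are not switched on. Third-instar male larvae already have testes with spermatocytes, which lie embedded in the fat body and are not part of the blood.

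Library totals ran from 5.40 to 18.16 M counts, with the 3 control libraries the shallowest (5.40 to 9.84 M). Levels are in CPM, a gene's counts for each M counts sequenced, with library sizes scaled by edgeR's TMM method; 3 counts correspond to 0.165 to 0.556 CPM, a limit that covers counting error only. Replicates differed by more than sampling noise, with a chi-square per degree of freedom of 13.4 to 90.7. The labelled cells were present in every library: the plasmatocyte gene Hml (Hemolectin, of clot formation) stood at 8790 to 16100 CPM, and 13 plasmatocyte markers summed to 28400 to 50900 CPM. Differences were called at an adjusted p under 0.05 (edgeR's quasi-likelihood test, Benjamini-Hochberg over 9978 genes). In RNA from mixed cells, fewer cells of a type and less RNA per cell cannot be told apart.

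RNA of the set was found in all 9 bleeds, with the highest summed levels in control replicates 2 and 3. Which cells these counts came from was not tested. The 10 genes summed to 112, 389 and 290 CPM in the control libraries, 66.3, 64.6 and 86.5 CPM in p210, and 105, 79.8 and 84.4 CPM in T315I. Control replicate 1 was therefore close to the highest T315I library, while the other control libraries were well above it. Of the 10 genes, 9 had counts and entered the tests. comr did so only through the control libraries, as no p210 library and 1 T315I library passed the low-count filter for it. The remaining gene, sa, was at 0 in all libraries. It encodes the TAF8-related tTAF (FBgn0002842, chromosome 3L, 21405425 to 21406738 in dm6), and 0% of its span is free of the gene rgn on the opposite strand. In the gene lists used here 22 of 23 genes at 0 throughout had no free span and no gene with counts lacked one, so no statement on the level of sa can be drawn from its 0.

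Of the 9 genes tested, 8 were lower in p210 than in the control, where 30.3% of all genes tested were lower, and 8 were lower in T315I, where 28.7% were. The gene not called in either comparison was mia. The 8 include comr, which entered the tests only through the control libraries, so its calls add no support. None was higher, beside 26.9% and 20.5% of all genes. In all, 57.1% and 49.3% of genes were called in one direction or the other. In the same 8 genes every p210 and every T315I library lay below every control library, which held for 30.4% and 27.8% of all genes tested. The median over the 9 genes was -2.39 on the log2 scale in p210 and -2.19 in T315I, beside 0.05 and -0.02 over all genes tested. Both comparisons share the same 3 control libraries, so they are not independent. With 3 libraries against 3, an exact permutation test of a single gene cannot go below p = 0.1, and the 8 genes reached that value in both comparisons.

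**Figure D1:**
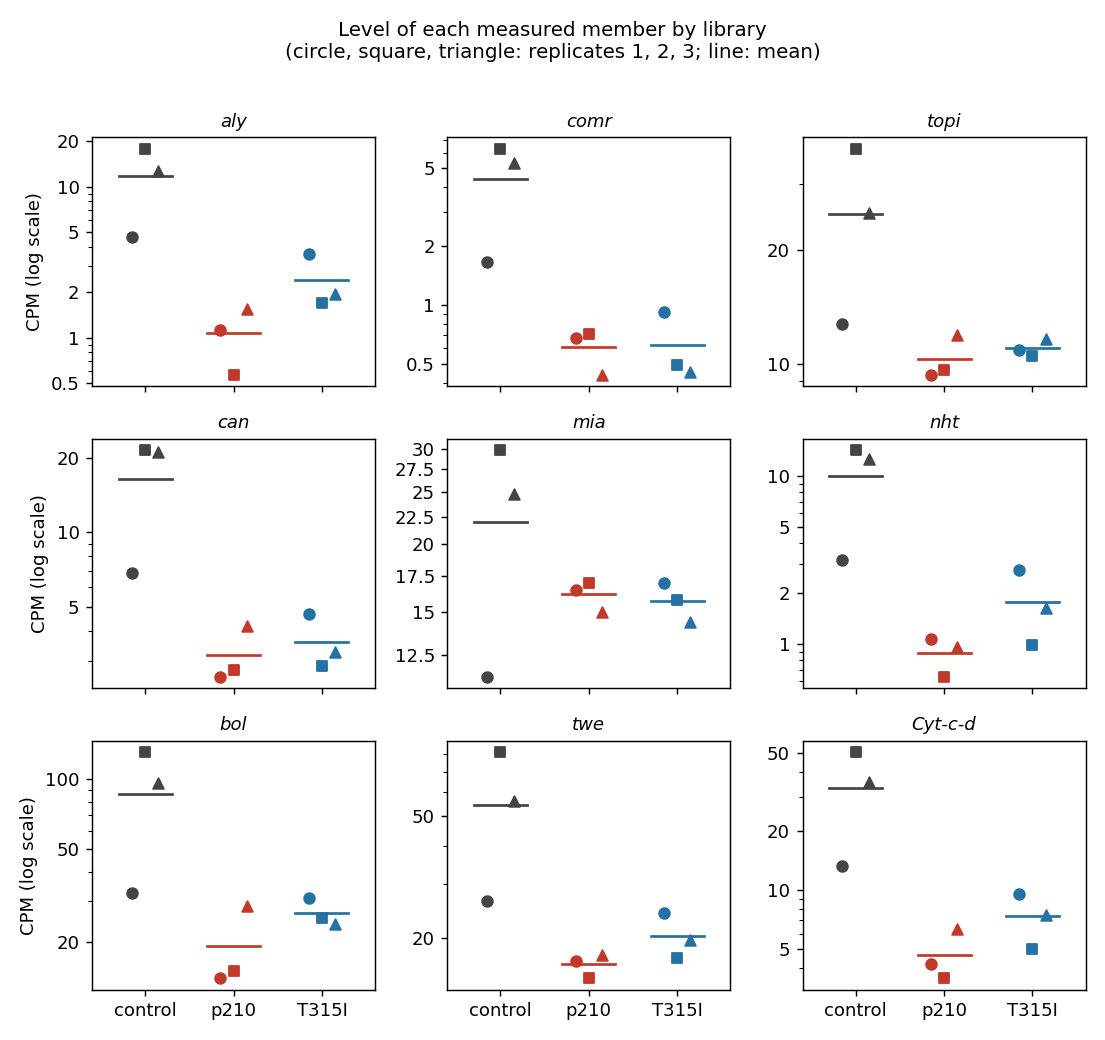
CPM on a log axis of each of the 9 measured genes in every library of the control (grey), p210 (red) and T315I (blue); circles, squares and triangles are replicates 1, 2 and 3, and lines are group means. In 8 panels all transgene libraries sit below control replicate 1, and in the panel of mia control replicate 1 is the lowest of the 9 libraries at 11.4 CPM.

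Among the tMAC genes, aly (always early; FBgn0004372, chromosome 3L, 3024129 to 3026521) encodes the testis relative of LIN-9. It stood at 4.62, 17.8 and 12.6 CPM in the control libraries, 1.13, 0.567 and 1.54 CPM in p210, and 3.60, 1.69 and 1.96 CPM in T315I. The groups with a transgene did not reach the control, and T315I lay wholly above p210. aly fell by 3.44 ± 0.58 (SE) on the log2 scale in p210 (edgeR adjusted p = 0.00174) and by 2.28 ± 0.55 in T315I (adjusted p = 0.00969).

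comr (cookie monster; FBgn0034667, chromosome 2R, 21864870 to 21866859) encodes another tMAC protein, and it was the scarcest of the measured genes. It had 9, 57 and 56 counts in the control libraries, or 1.66, 6.29 and 5.31 CPM, against 6 to 12 counts in p210 and 7 to 13 in T315I. Its transgene libraries, at 0.439 to 0.708 CPM and 0.457 to 0.918 CPM, were near the level that 3 counts give, so its size of change is less certain than that of the others. comr fell by 2.86 ± 0.54 and by 2.84 ± 0.54 on the log2 scale in p210 and T315I (edgeR adjusted p = 0.00237 and 0.00499). Because comr entered the test only through the control libraries, the filter favoured a fall and these calls add no support.

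topi (matotopetli; FBgn0037751, chromosome 3R, 9775121 to 9777943) encodes the zinc-finger protein of tMAC. Its control libraries had 12.7, 37.1 and 25.1 CPM, p210 had 9.33, 9.63 and 11.9 CPM, and T315I had 10.9, 10.5 and 11.6 CPM. The 6 transgene libraries lay within a narrow range just under control replicate 1. topi fell by 1.29 ± 0.33 in p210 and by 1.19 ± 0.32 in T315I on the log2 scale (edgeR adjusted p = 0.00817 and 0.0154), the smallest of the called changes. In T315I the call was lost without control replicate 2 (-0.79, adjusted p = 0.0548) and without T315I replicate 2 (-1.10, adjusted p = 0.0522).

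The tTAF genes did not move alike. can (cannonball, the TAF5-type tTAF; FBgn0011569, chromosome 3L, 10263909 to 10267111) stood at 6.83, 21.5 and 21.2 CPM in the control, 2.6, 2.76 and 4.17 CPM in p210 and 4.66, 2.88 and 3.26 CPM in T315I. No transgene library reached the lowest control library. can fell by 2.39 ± 0.45 and by 2.21 ± 0.44 on the log2 scale (edgeR adjusted p = 0.00229 and 0.00572).

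nht (no hitter, the TAF4-type tTAF; FBgn0041103, chromosome 2L, 15317954 to 15318901) stood at 3.14, 14.2 and 12.7 CPM in the control, 1.07, 0.638 and 0.952 CPM in p210 and 2.75, 0.985 and 1.63 CPM in T315I. T315I replicate 1 came close to control replicate 1, and the p210 libraries had only 9 to 19 counts. It fell by 3.49 ± 0.61 in p210, the largest estimate among the 9 genes, and by 2.50 ± 0.58 in T315I (edgeR adjusted p = 0.0019 and 0.00874).

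mia (meiosis I arrest, the TAF6-type tTAF; FBgn0014342, chromosome 3R, 5548115 to 5551168) stood at 11.4, 29.8 and 24.8 CPM in the control, 16.5, 17.0 and 15 CPM in p210 and 17.0, 15.8 and 14.4 CPM in T315I. All transgene libraries lay inside the range of the control, above replicate 1 and below the other 2 libraries. The log2 fold changes were -0.46 ± 0.29 (95% interval -1.11 to 0.20, edgeR adjusted p = 0.205) and -0.49 ± 0.29 (-1.15 to 0.16, adjusted p = 0.184). Without control replicate 1, the library in which mia was lowest, both comparisons passed the test (-0.70, edgeR adjusted p = 0.00427, and -0.73, adjusted p = 0.00444).

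The last 3 genes act as the cells enter meiosis or after it. bol (boule; FBgn0011206, chromosome 3L, 9097629 to 9134405) encodes the RNA-binding protein, of the DAZ family, that is needed for translation of twe mRNA. It had the most counts of the 9 in each control and T315I library, but fewer than mia in p210 replicates 1 and 2, with 32.3, 131 and 96.8 CPM in the control libraries, 13.9, 14.9 and 28.6 CPM in p210 and 30.9, 25.3 and 23.8 CPM in T315I. p210 replicate 3 and T315I replicate 1 came close to control replicate 1, so the groups were separate by a small margin. bol fell by 2.19 ± 0.46 in p210 (edgeR adjusted p = 0.00362) and by 1.70 ± 0.45 in T315I (0.0137). The second of these was lost without control replicate 2 (-1.29, adjusted p = 0.0574) and without T315I replicate 3 (-1.57, adjusted p = 0.0511).

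twe (twine; FBgn0002673, chromosome 2L, 16259414 to 16261877) encodes the Cdc25 phosphatase of meiosis. The control libraries had 26.4, 81.1 and 56.1 CPM, p210 had 16.9, 14.8 and 17.7 CPM, and T315I had 24.2, 17.2 and 19.8 CPM. T315I replicate 1 was just under control replicate 1, and the p210 libraries were close together. twe fell by 1.73 ± 0.34 and by 1.43 ± 0.33 on the log2 scale (edgeR adjusted p = 0.00263 and 0.00892).

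Cyt-c-d (FBgn0086907, chromosome 2L, 16715891 to 16719635) encodes the testis cytochrome c, which takes part in caspase activation when spermatids separate. It stood at 13.3, 50.8 and 35.8 CPM in the control, 4.18, 3.54 and 6.30 CPM in p210 and 9.54, 4.99 and 7.50 CPM in T315I. The transgene libraries were all below control replicate 1. Cyt-c-d fell by 2.84 ± 0.47 in p210, with the lowest adjusted p of the 9 genes (edgeR, 0.00168), and by 2.19 ± 0.46 in T315I (0.00645). Its span is 91.9% free of the opposite-strand gene CG31808, but only 63.6% of its exon bases are free of the exons of CG31808. The values of Cyt-c-d per kb of exon given below are therefore uncertain.

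Compared per kb of annotated exon, the levels had a partly stable order. In the control, Cyt-c-d (39.8 ± 22.5 CPM per kb, mean ± SD, n = 3) and twe (22.9 ± 11.5) led in every library, and comr (2.22 ± 1.23) was last in every library. Between them, bol (10.6 ± 6.11), nht (10.6 ± 6.34), topi (9.42 ± 4.59) and mia (8.5 ± 3.67) changed places from library to library, as did can (5.60 ± 2.84) and aly (5.14 ± 2.92), so these neighbours did not differ beyond their spread. The exons of bol are summed over all its annotated transcripts (8.169 kb), which lowers its value per kb.

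In p210 the first places went to twe (6.93 ± 0.632 CPM per kb), mia (6.24 ± 0.401) and Cyt-c-d (5.58 ± 1.72), whose libraries overlapped. In T315I they went to Cyt-c-d (8.77 ± 2.72) and twe (8.56 ± 1.49), which overlapped, and then mia (6.08 ± 0.516). mia thus stood behind 5 genes in the control and behind 1 or 2 in the transgene groups, while aly and comr were last in each group.

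The make-up of the summed counts shifted in the same way. mia held 7.66 to 10.2% of the 10 genes' counts in the control libraries, 17.3 to 26.3% in p210 and 16.3 to 19.8% in T315I. topi went from 8.64 to 11.3% in the control to 13.7 to 14.9% in p210, with T315I between 10.5 and 13.8%. The reverse was seen for aly (4.11 to 4.57% in the control, 0.877 to 1.78% in p210 and 2.12 to 3.45% in T315I) and Cyt-c-d (11.8 to 13.0%, 5.48 to 7.28% and 6.26 to 9.12%). twe held much the same share in every library (19.3 to 23.5% in the control, 20.5 to 25.5% in p210 and 21.5 to 23.4% in T315I). Shares of 1 library rest on 609 to 3526 counts in all.

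**Figure D2:**
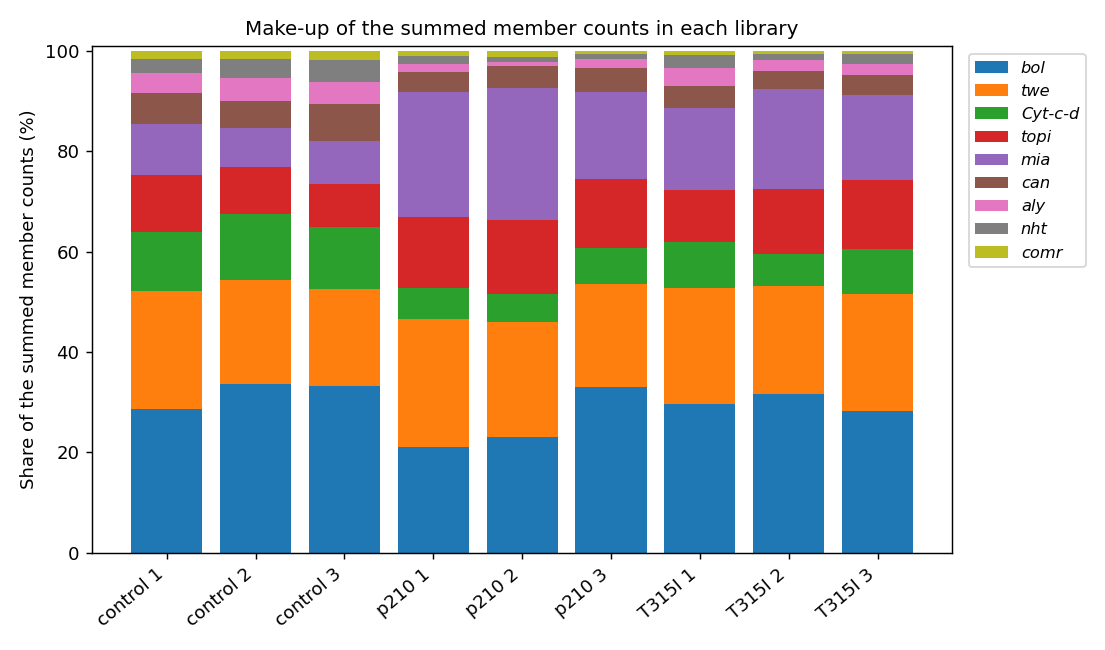
Share of each gene (colours) in the summed counts of the 10 genes, in percent, for each of the 9 libraries; sa is at 0. The band of mia widens from at most 10.2% in the control libraries to at least 16.3% in the transgene libraries, while those of aly, nht and Cyt-c-d narrow.

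A list of sperm genes gave a second reading of male germ cell RNA. Of 50 such genes in the table, 14 were at 0 in every library, all 14 with no free span, and 35 entered the tests. In p210 34 of 35 fell and none rose (31 to 35 over the alternatives tried), and in T315I 32 of 35 fell and none rose (23 without T315I replicate 2, the lowest). The medians were -2.93 and -2.09, beside 0.05 and -0.02 over all genes tested. S-Lap genes, proteasome and Mst98C genes of this list have near copies and are uncertain one by one.

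The sperm genes were far more abundant than the meiotic arrest genes, whose summed CPM came to 5.43 to 14.3% of theirs. The list summed to 1330, 7170 and 3940 CPM in the control, 536, 451 and 702 CPM in p210, and 1240, 808 and 943 CPM in T315I. As for the 10 genes, control replicate 2 was the highest library and control replicate 1 the lowest of its group, close to T315I replicate 1. betaTub85D, the tubulin of spermatocytes and sperm tails, had 95.1, 472 and 264 CPM in the control, 32, 25.9 and 43.9 CPM in p210 and 85.0, 55.0 and 55.9 CPM in T315I. p-cup, which had the lowest adjusted p of the list in both comparisons, fell by 3.44 ± 0.50 in p210 and by 2.37 ± 0.47 in T315I (edgeR adjusted p = 0.00133 and 0.00554), or by 2.70 and 1.63 without control replicate 2. Also among the first 4 by adjusted p were r-cup (-2.39 ± 0.38 and -1.82 ± 0.38) and gskt (-3.14 ± 0.52 and -2.27 ± 0.49), a relative of the kinase gene sgg; without control replicate 2 gskt stood at -2.54 and -1.67.

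Set against those sperm genes, the meiotic arrest genes did not all keep one ratio. Per 1000 counts of the sperm list, Cyt-c-d had 7.09 to 10 counts in the control libraries, 7.80 to 8.97 in p210 and 6.18 to 7.96 in T315I. can had 3.00 to 5.39, 4.85 to 6.12 and 3.46 to 3.76 counts, and the ranges of nht overlapped likewise (1.99 to 3.22, 1.36 to 2.00 and 1.22 to 2.22). aly had 2.48 to 3.47, 1.26 to 2.19 and 2.08 to 2.90 counts. For Cyt-c-d, can and nht the ranges of both transgene groups overlapped that of the control, while the p210 and T315I ranges of can lay apart, with p210 the higher.

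By contrast mia had 4.16 to 8.62 counts per 1000 in the control, 21.4 to 37.7 in p210 and 13.7 to 19.6 in T315I, with no overlap between any 2 groups. topi had 5.18 to 9.59, 16.9 to 21.3 and 8.83 to 13.0 counts, and twe had 11.3 to 19.9, 25.2 to 32.8 and 19.5 to 21.3. For these 3 genes the ratio was highest in p210, the group with the lowest sperm-gene levels. Whether cells other than spermatocytes gave part of their counts was not tested. bol had 18.2 to 24.6, 25.9 to 40.7 and 24.9 to 31.3 counts, so both transgene groups lay just above the control and overlapped each other. For topi and twe the T315I range overlapped that of the control.

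Partner genes of the same machinery moved in both directions. Of 8 tested partner genes 6 fell and 1 rose in p210, and 5 fell and 1 rose in T315I. Among those that fell in both, dany passed the low-count filter only through the control libraries. No p210 library and 2 T315I libraries passed it, so the filter favoured a fall and its calls add no support. The T315I call of dany (-2.14) was also lost without control replicate 2 or 3 and without T315I replicate 2 or 3 (edgeR adjusted p = 0.0668 to 0.0865). kmg, which keeps spermatocytes from transcribing genes of other tissues, fell by 2.52 ± 0.37 and by 2.41 ± 0.37 (edgeR adjusted p = 0.00134 and 0.00308). The paired homeobox genes achi and vis, tandem copies whose counts are uncertain one by one, fell by 1.84 ± 0.30 and 2.13 ± 0.37 in p210 and by 1.82 ± 0.30 and 1.40 ± 0.36 in T315I.

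wuc, another of the partner genes, fell by 2.33 ± 0.53 in p210 and by 1.48 ± 0.50 in T315I (edgeR adjusted p = 0.0346). The second was a call lost without any of 6 libraries (edgeR adjusted p = 0.0512 to 0.109). tomb, the tMAC relative of mip120, had 11, 67 and 43 counts in the control, and its call in p210 (-1.54 ± 0.55, edgeR adjusted p = 0.0375) was likewise lost in 5 of 9 fits without 1 library. In T315I tomb was not called (-1.22 ± 0.55, edgeR adjusted p = 0.0905). The histone-binding gene Caf1-55 and mip40 belong to both tMAC and the complex of other cells. Caf1-55 rose by 0.76 ± 0.19 and 0.68 ± 0.19 (0.33 and 0.26, not called, when scaled to plasmatocyte markers), and mip40 was not called (-0.20 ± 0.17 and -0.41 ± 0.17), though it passed in T315I under 3 of 5 other scalings, with -0.85 when scaled to plasmatocyte markers. Of 6 tested genes of dREAM and general TFIID that are used in many cells, 3 rose in each comparison (0 when scaled to plasmatocyte markers) and 1 fell in both. The gene that fell was E2f2, at -0.36 ± 0.10 and -0.47 ± 0.10 (edgeR adjusted p = 0.0156 and 0.00784), the first lost without p210 replicate 2 or 3 and with no low-count filter.

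Most of the measured tMAC and tTAF genes, twe and Cyt-c-d have a broadly expressed counterpart, and none of 9 such genes fell in either comparison. Of the 9, 5 rose in p210 and 5 in T315I: mip130 (the counterpart of aly), mip120, Taf5 (of can), stg (of twe) and Cyt-c-p (of Cyt-c-d). Scaled to plasmatocyte markers, stg and Cyt-c-p kept the call in both comparisons and the other 3 lost it (0.01 to 0.40); Taf5 also lost it in p210 by upper-quartile and total-count scaling, and mip120 in T315I without T315I replicate 2. stg, the mitotic Cdc25 gene, had 19.9, 12.8 and 51.0 CPM in the control, 78.8 to 130 CPM in p210 and 93.2, 90.8 and 78.9 CPM in T315I, a rise of 1.94 ± 0.43 and 1.64 ± 0.43 on the log2 scale (2.71 and 2.44 without control replicate 3). Cyt-c-p, whose gene starts 296 bases beyond the end of Cyt-c-d on the same strand, rose by 1.34 ± 0.25 and 1.20 ± 0.25 (edgeR adjusted p = 0.00227 and 0.00625). Taf6, the counterpart of mia, was not called at 0.13 ± 0.16 and 0.17 ± 0.16, nor was Taf4, that of nht, at 0.12 ± 0.14 and -0.01 ± 0.14. Taf8 (0.18 ± 0.25 and 0.11 ± 0.25) and Taf12 (0.24 ± 0.28 and 0.10 ± 0.28) were not called either. Scaled to plasmatocyte markers all 4 were negative in both comparisons (-0.25 to -0.46), and Taf4 and Taf6 in p210 also by upper-quartile and total-count scaling (-0.02 to -0.04).

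**Figure D3:**
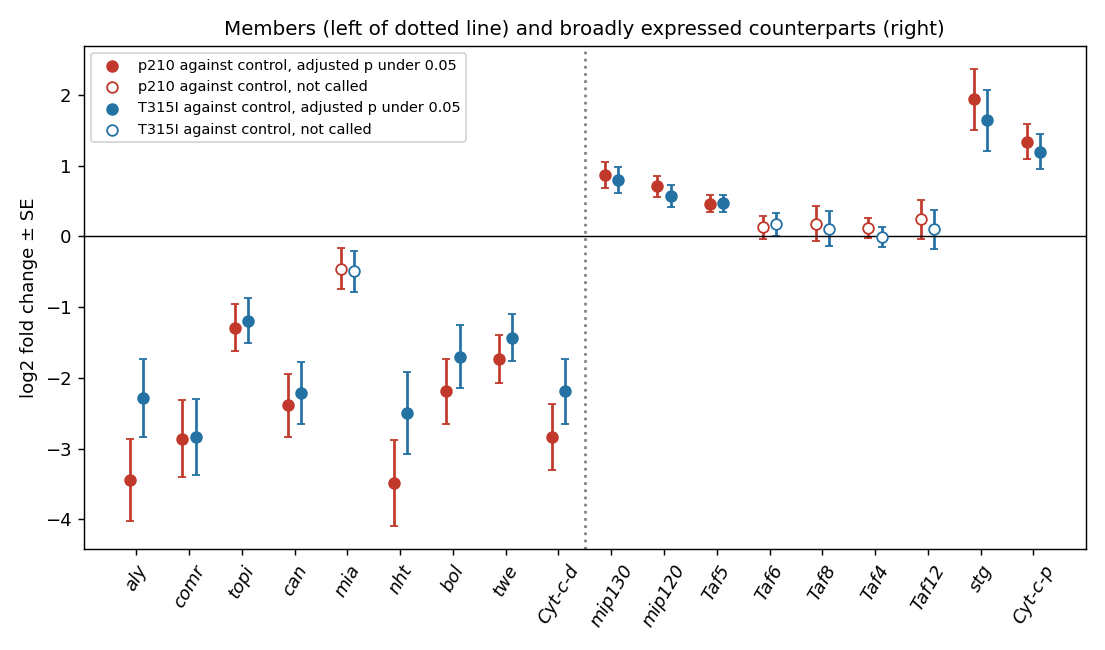
Log2 fold change with its standard error of the 9 measured genes (left of the dotted line) and of 9 broadly expressed counterparts (right) in p210 (red) and T315I (blue) against the control; filled points are called. All 9 genes on the left are below 0; the highest points on the right are stg at 1.94 and 1.64, while Taf4, Taf6, Taf8 and Taf12 lie near 0 and turn negative when scaled to plasmatocyte markers.

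Within a library the balance of each pair can be read without any scaling between libraries. Per kb of exon, Cyt-c-d had 28.7, 183 and 54.5% of the counts of Cyt-c-p in the control libraries, 3.37, 2.99 and 5.66% in p210 and 8.79, 4.87 and 6.84% in T315I. Only in control replicate 2 did the testis cytochrome exceed the common one. twe had 171, 816 and 142% of the counts of stg per kb in the control, 27.6, 16.6 and 17.5% in p210 and 33.4, 24.3 and 32.3% in T315I, so the meiotic Cdc25 gene was the higher of the 2 in each control library and the lower in each transgene library. aly had 18.6, 109 and 45.4% of mip130 in the control and 1.25 to 9.19% in the transgene libraries; only 28.4% of the span of mip130 is free of other genes, so its level is uncertain. The pairs whose groups overlapped were tomb against mip120, with 22.3, 119 and 50.5% in the control and 7.34 to 24.7% in the other libraries, and mia against Taf6, with 33.9, 98.8 and 79.7% in the control and 36.5 to 52.0% in the other libraries.

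**Figure D4:**
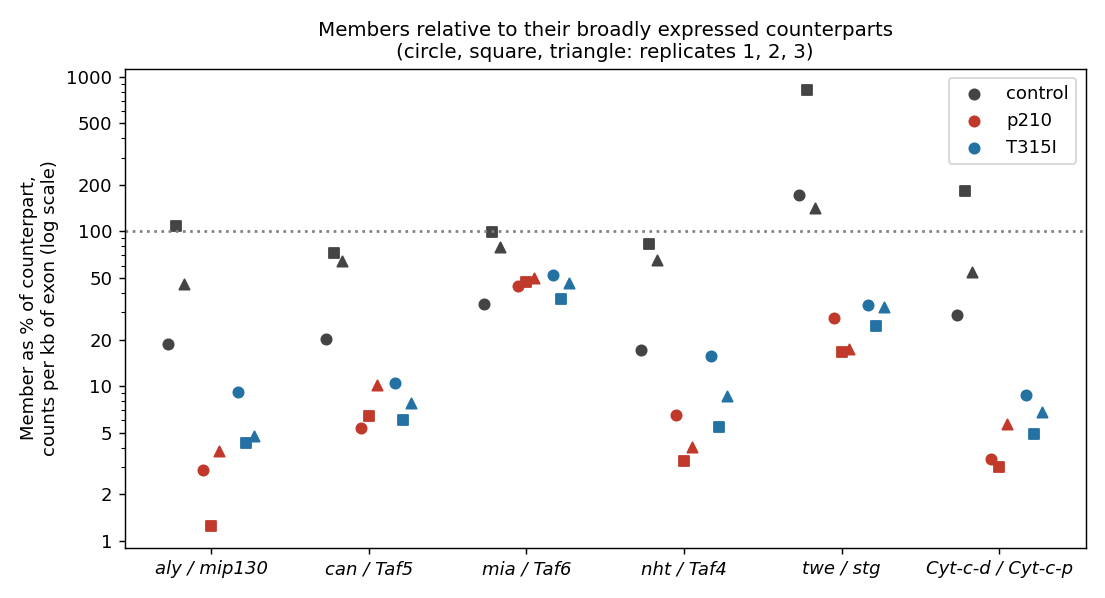
Counts per kb of exon of each gene as a percentage of its broadly expressed counterpart, on a log axis, in the 9 libraries; circles, squares and triangles are replicates 1, 2 and 3. For 5 of the 6 pairs plotted (tomb against mip120 is not) every p210 and T315I point lies below every control point, with twe against stg from at least 142% in the control to at most 33.4% elsewhere, and the points of mia against Taf6 overlap.

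Further genes of male germ cells were read beside the set. All 12 Y-linked fertility genes, which are transcribed in spermatocytes, were called lower in p210 and in T315I. Of these Pp1-Y1, Pp1-Y2 and ORY passed the low-count filter only through the control libraries. No p210 library and 0, 1 and 2 T315I libraries passed it, so the filter favoured a fall and their calls add no support. The dynein heavy chain gene kl-3 stood at 159, 497 and 203 CPM in the control, 41.3, 49.5 and 45.9 CPM in p210 and 61.6, 75.9 and 75.4 CPM in T315I. Without control replicate 2 the T315I count was 6 of 12, and ORY and Pp1-Y2 (-1.35 and -1.93) were among the calls lost. The meiotic cohesion gene ord fell, with log2 fold changes of -3.39 ± 0.56 and -2.66 ± 0.54. uno, needed for pairing of chromosomes in male meiosis, fell by 1.37 ± 0.31 and by 1.21 ± 0.30. mei-S332 was called too (-1.01 ± 0.33 and -0.99 ± 0.33), but lost the call in at least 4 of 9 fits without 1 library in each comparison.

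Genes of other germ cells were divided. Of 7 tested, vas (-3.50 ± 0.66 and -2.81 ± 0.63), bgcn (-2.69 ± 0.53 and -1.71 ± 0.51) and ovo (-2.85 ± 0.72 and -3.07 ± 0.74) fell. ovo had only 9 to 25 counts in the control libraries and entered the test only through them, as no p210 or T315I library passed the low-count filter. The filter thus favoured a fall in ovo, and its calls add no support. Without control replicate 1 ovo stood at -2.04 and -2.25. bgcn lost its T315I call without control replicate 2, T315I replicate 2 or T315I replicate 3 (-1.15 to -1.54). AGO3, a piRNA factor gene, rose by 1.34 ± 0.27 and 0.81 ± 0.26 and aub by 1.37 ± 0.47 and 1.53 ± 0.47. The AGO3 call in T315I was lost in 4 fits without 1 library, those of aub in 4 in p210 and 3 in T315I, and scaled to plasmatocyte markers only that of AGO3 in p210 remained; without control replicate 3 aub stood at 2.29 and 2.48. bam, which acts in dividing spermatogonia, had 4, 18 and 96 counts in the control and 145 to 276 in the transgene libraries; it was called higher in p210 (1.82 ± 0.63, edgeR adjusted p = 0.0337) but not in T315I (1.59 ± 0.63, adjusted p = 0.0611). The p210 call was lost in 4 fits without 1 library, and without control replicate 3 bam passed in both (3.29 and 3.10). Of the genes of the gonad's somatic cells, dsx fell by 2.21 ± 0.25 and by 1.95 ± 0.25 and eya by 2.88 ± 0.39 and by 2.23 ± 0.37, while tj was at 0 to 3 counts in every library. Both dsx and eya are also used outside the gonad.

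Of 3 RNAs of male dosage compensation none was called lower in either comparison. msl-2, which encodes the limiting protein of that complex, rose by 0.63 ± 0.15 in p210 (edgeR adjusted p = 0.00537; 0.14 and not called when scaled to plasmatocyte markers) and was not called in T315I (0.35 ± 0.14, or -0.08 by that scaling; called without control replicate 3, at 0.47). lncRNA:roX1 had 1100, 566 and 1020 CPM in the control, 988, 1090 and 1040 CPM in p210 and 1140, 908 and 949 CPM in T315I and was not called (0.22 ± 0.23 and 0.16 ± 0.23, or -0.25 and -0.26 when scaled to plasmatocyte markers). Control replicate 2, where the meiotic arrest genes had their highest summed level, had the least lncRNA:roX1. A link between these levels was not tested. lncRNA:roX2 was not called either (-0.00 ± 0.21 and -0.30 ± 0.21), but passed in T315I when scaled to plasmatocyte markers (-0.76, edgeR adjusted p = 0.0437).

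Markers of other tissues were also higher in the control, but with another order of its libraries. Fat body markers summed to 99000, 63100 and 39700 CPM in the control, 4920 to 6550 CPM in p210 and 8530 to 12700 CPM in T315I; 9 and 8 of 10 tested fell. Muscle markers summed to 3620, 3550 and 1670 CPM in the control and 613 to 723 CPM in the transgene libraries, and 12 of 12 fell in both comparisons. Without 1 library the count went down to 11 in each, as Tm1 (-0.57 and -0.69) lost its call in most of those fits. Within the control group, replicate 1 held the most fat body RNA and the least RNA of the meiotic arrest genes, and between control replicates 1 and 2 the 10 genes differed 3.46-fold upward where fat body markers went to 0.638 of their level. Cuticle and midgut markers summed to 65.5 to 193 and 424 to 1080 CPM in the control, and to 7.51 to 13.5 and 38.2 to 107 CPM in the transgene libraries. The part of these tissues in the fall of the meiotic arrest genes was not tested.

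**Figure D5:**
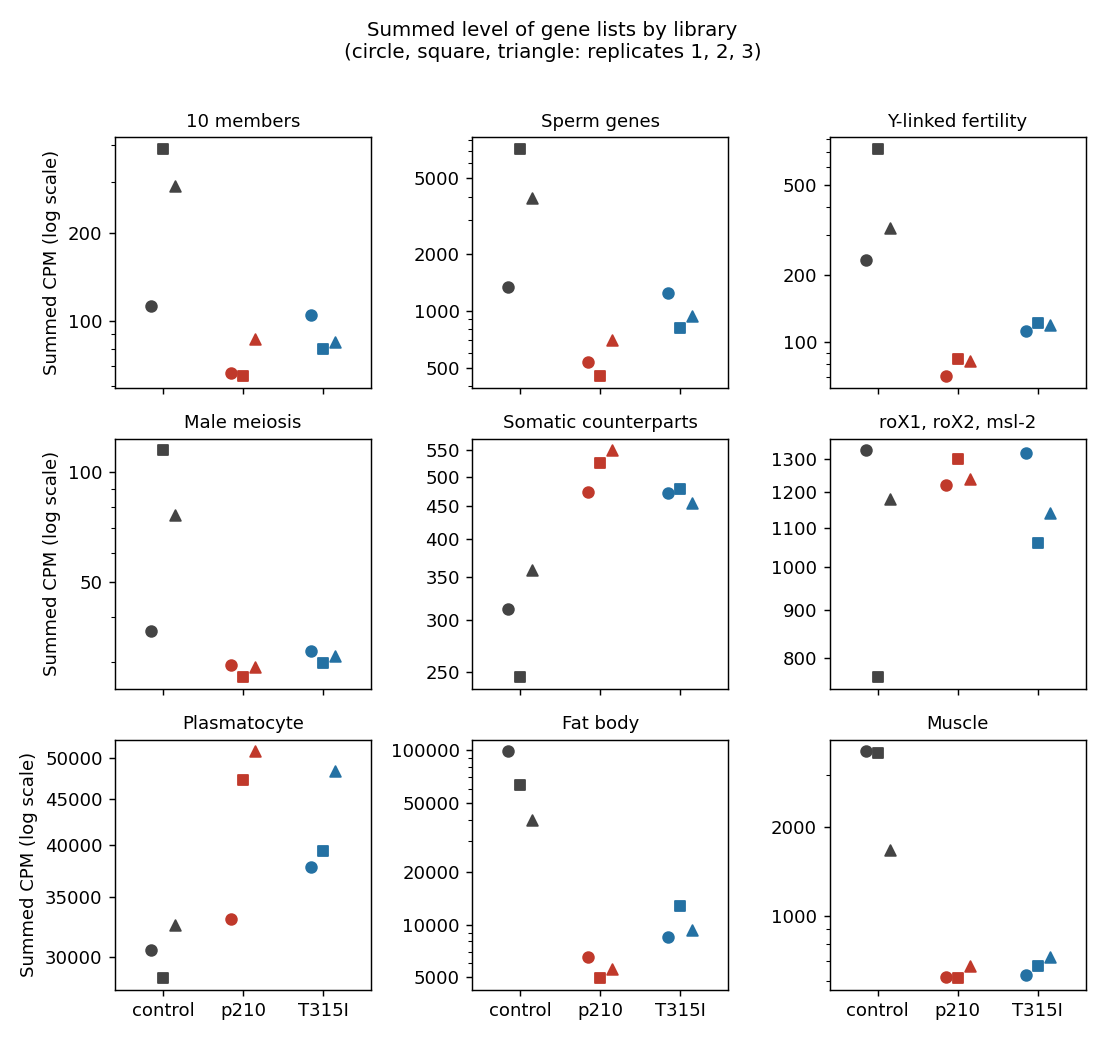
Summed CPM, on log axes that differ between panels, of 9 gene lists in the 9 libraries; circles, squares and triangles are replicates 1, 2 and 3. In the panels of the 10 meiotic arrest genes, sperm genes, Y-linked fertility genes and male meiosis genes control replicate 2 is the highest point, whereas fat body markers are highest in control replicate 1 at 99000 CPM.

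Between the transgene groups no difference was called. Of the 9 genes tested in T315I against p210, 0 passed by edgeR, where 0.01% of all genes did (1 of 9978). At an unadjusted p under 0.05 edgeR gave 0 of the 9, limma-voom 0 and DESeq2 1, which was aly. The same cut-off was passed by 348 of 9978 genes in edgeR, 247 of 9978 in limma-voom and 526 of 13415 in DESeq2. T315I had the higher estimate in 8 of the 9 by edgeR and DESeq2 and in 7 by limma-voom. The log2 differences were 1.16 ± 0.57 for aly (95% interval -0.12 to 2.43), 1.00 ± 0.60 for nht (-0.36 to 2.35), 0.65 ± 0.46 for Cyt-c-d (-0.37 to 1.68), 0.48 ± 0.45 for bol (-0.52 to 1.48) and 0.31 ± 0.33 for twe (-0.44 to 1.05). These intervals reach beyond a 2-fold difference in one direction. The other estimates were closer to 0, with can at 0.18 ± 0.44, topi at 0.10 ± 0.32, comr at 0.02 ± 0.57 and mia at -0.04 ± 0.29 (-0.69 to 0.61). The SE of comr was as large as that of aly, and that of can was near that of bol, so a difference in comr or can is not excluded. Only aly had all T315I libraries above all p210 libraries, as did 9.57% of the genes tested. The 35 sperm genes had a median of 0.87 in this comparison, beside -0.03 over all genes, with 0 called.

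The genes whose pattern was most like the set were sought among all 9978 genes tested. Likeness was Pearson's r over the 9 libraries between a gene's log2 CPM and the mean standardized log2 CPM of the 9 measured genes, given as a description, since libraries of a group share their level. The 10 highest were CG34241 (r = 0.9975), CG46025, CG3795, elfless, mtsh, ProtB, CG11726, Pof, CG30048 and CG34238 (0.9942). ProtB encodes a protamine that packs sperm DNA, and elfless a RING-finger protein. With group means subtracted, which leaves the differences among replicates, the highest were CG12860 (r = 0.997), CG17196, CG14931, Reepl1, CG16736, lncRNA:CR9284, soti, CG34241, Bfc and CG12617 (0.9949). soti, of the list of sperm genes, acts in caspase activation of spermatids, and CG34241 was the only gene among both sets of 10. Within the set itself, each gene's r with the mean of the others ran from 0.948 to 0.996, except for mia at 0.747, and from 0.850 to 0.985 with group means subtracted, where mia was at 0.902.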

How the data were processed

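RNA of 9 larval bleeds was sequenced from stranded libraries, as the labels' protocols state. The submitters' processing notes list the aligner HISAT2 (2.1.0), FastQC (0.11.8), featureCounts (2.0.1), Subread and build dm6, without the strand setting or annotation. The deposited values are raw counts for every gene, which the authors left unnormalized; every column was used. Positions, exon lengths and overlaps came from the Ensembl annotation in dm6 coordinates (17554 of 17874 genes matched by symbol).

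The analysis used edgeR 4.0.16 with limma 3.58.1 (R 4.3.3): filterByExpr (a minimum count of 10, here 0.69 CPM in 3 libraries; 9978 genes kept), TMM, and the robust quasi-likelihood test, two-sided, with 1 mean per group over 9 libraries. The test was checked on simulated counts in which far fewer genes changed than were called here, so that check does not cover such a case. A standard error is the size of the log2 fold change over the root of its F statistic. Alternatives were RLE, upper-quartile, total-count and plasmatocyte-marker scaling, scaling without tissue markers, DESeq2 1.42.0, limma-voom, no filter, a filter of 5 CPM in 3 libraries, a replicate block, the compared groups alone and each library left out.

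The 10 genes and all lists were chosen with earlier results of these data known. By rule, the genes named beside them were all counterparts, the 10 genes most alike by 2 measures, and up to 4 called genes per list by adjusted p, or 2 abundant ones. Of the list genes not all are printed. betaTub85D, bam, tj, Hml, tomb, mip40, dany, Tm1, Pp1-Y2 and ORY fell outside this rule and were chosen after their values were seen.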

Additional observations from a re-analysis of the deposited data

How the results depend on the processing

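The number of the 10 genes called was 8 in p210 and 8 in T315I against the control under every alternative on all libraries, except with the filter of 5 CPM, where aly, comr and nht were not tested and 5 of 6 passed in each comparison. Without 1 library it ran from 8 to 9 in p210, from 6 to 9 in T315I, and from 0 to 0 in T315I against p210. Scaling to plasmatocyte markers moved the median over all genes from 0.05 to -0.42 in p210 and from -0.02 to -0.46 in T315I, and the share of called genes that were higher from 47 to 13.6% and from 41.7 to 11% (36% and 35% in p210 by upper-quartile and total-count scaling); 8 genes of the set were lower in each. Over all genes, p210 against the control had 3671 calls with the filter of 5 CPM, which tests 7639 genes, in place of 5700. T315I against p210 had 36 by DESeq2, 6 with those groups alone, 5 by plasmatocyte scaling, 2 without a filter and 0 to 4 without 1 library, in place of 1.

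Among the 10 genes, signs turned only in T315I against p210, where none was called. mia (-0.04) was at 0.01 by upper-quartile scaling, 0.02 by total counts and 0.02 with the filter of 5 CPM, and comr (0.02) was at -0.02 by limma-voom. Without 1 library, mia ran from -0.10 to 0.03, comr from -0.36 to 0.21 and can (0.18) from -0.05 to 0.45. The cause was not tested.

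The replicate block left 8, 8 and 0 genes of the set called, and 5299, 4125 and 1 over all genes. Same-numbered libraries share only a number: their deviations from the group means correlated at -0.318 to 0.166, and 2 of 9 libraries correlated best with one of their own number. Depth limits comr, aly and nht most, with 6 to 21 counts in the p210 libraries.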
